A study of Mus musculus with 4 samples.

Results

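Transcript levels of 10 genes of the tumour necrosis factor (TNF) receptor superfamily were compared between plasmacytoid dendritic cells (pDCs) of wild-type (WT) mice and of mice lacking Flt3 (Flt3 KO). The genes were Ngfr, Tnfrsf1a, Tnfrsf1b, Ltbr, Fas, Tnfrsf9, Tnfrsf13b, Tnfrsf13c, Tnfrsf18 and Tnfrsf21. They were chosen by symbol, with the genotype differences on these arrays already known, so their own values are a description and carry no test. All 10 were measured, among 19938 genes read by a probe set that the platform annotation gives to exactly 1 symbol, and each of the 10 had 1 such probe set. The cells were mature splenic pDCs obtained by digestion with collagenase and DNase and sorting, from mice in steady state. There were 2 biological replicates of each genotype, each on its own whole-transcript array. Mouse strain, age and sex, the Flt3 allele and the number of animals in a replicate are not stated in the labels, so the spread below is that between these samples.

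Receptors of this family sit on the cell surface, bind trimeric ligands of the TNF family through cysteine-rich repeats and signal through adaptors. A subset that includes Ngfr, Tnfrsf1a, Fas and Tnfrsf21 carries a cytoplasmic death domain, which docks adaptors such as TRADD and FADD; the others bind TRAF proteins, which lead to NF-κB. In pDCs, the specialised producers of type I interferon, TNF and CD40 ligand are known modifiers of maturation, and Ngfr, the low-affinity neurotrophin receptor p75, has been described on these cells.

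The deposited values are the authors' processed intensities, given here as log2 intensity, on which 1 unit is a doubling of signal. Flt3 itself read 10.71 and 10.77 in WT against 8.46 and 8.61 in Flt3 KO. The pDC label was borne out by Siglech, Bst2, Tcf4 and Irf8, the genes of the pDC lectin, of a pDC surface antigen and of transcription factors of the lineage, which lay between 11.96 and 12.93 on every array, against a median of 5.89 over all genes. Bright in both genotypes, Irf8 still differed by −0.31 (SE 0.046, limma adjusted p = 0.022). In a limma fit across the 19938 genes, 2.39% passed a Benjamini-Hochberg adjusted p of 0.05 (1.08% higher and 1.31% lower in Flt3 KO). At an unadjusted limma p under 0.05 the share was 17.1% (6.95% higher and 10.1% lower), against which the unadjusted counts of each list below are to be read. An exact two-sided permutation test of 2 samples against 2 has a smallest p of 0.333, so a call here depends on limma's pooling of variance over genes. Monocyte and macrophage markers were also higher in the Flt3 KO arrays, and unequally so, as given beside the receptors below.

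The sequences upstream of 5 of the genes are shown because 4 of them, Ngfr, Tnfrsf21, Tnfrsf1a and Ltbr, were the members with both Flt3 KO values above both WT values, while Tnfrsf13c lay on the other side. Each is the 250 bases before the annotated start in RefSeq (GRCm38.p6), 5′ to 3′ on the strand of the gene. Capitals mark the letters GGGCGG (a GC box) and CCGGAA (a core of ETS factor sites), on either strand.
Ngfr, chr11:95587699-95587948, minus strand: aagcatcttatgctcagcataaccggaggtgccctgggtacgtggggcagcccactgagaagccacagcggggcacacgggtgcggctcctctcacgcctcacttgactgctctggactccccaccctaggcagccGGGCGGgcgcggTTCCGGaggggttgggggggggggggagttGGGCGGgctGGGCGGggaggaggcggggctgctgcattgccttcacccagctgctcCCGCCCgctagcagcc
Tnfrsf21, chr17:43016305-43016554, plus strand: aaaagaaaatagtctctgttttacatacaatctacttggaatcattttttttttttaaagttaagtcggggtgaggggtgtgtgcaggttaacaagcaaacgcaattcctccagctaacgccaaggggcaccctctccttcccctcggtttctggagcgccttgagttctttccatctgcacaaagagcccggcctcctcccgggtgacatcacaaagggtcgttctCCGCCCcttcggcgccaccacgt
Tnfrsf1a, chr6:125349473-125349722, plus strand: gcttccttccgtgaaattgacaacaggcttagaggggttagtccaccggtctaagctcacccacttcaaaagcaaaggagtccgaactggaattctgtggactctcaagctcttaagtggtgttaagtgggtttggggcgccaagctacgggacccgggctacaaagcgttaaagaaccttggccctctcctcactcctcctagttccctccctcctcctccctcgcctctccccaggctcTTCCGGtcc
Ltbr, chr6:125313886-125314135, minus strand: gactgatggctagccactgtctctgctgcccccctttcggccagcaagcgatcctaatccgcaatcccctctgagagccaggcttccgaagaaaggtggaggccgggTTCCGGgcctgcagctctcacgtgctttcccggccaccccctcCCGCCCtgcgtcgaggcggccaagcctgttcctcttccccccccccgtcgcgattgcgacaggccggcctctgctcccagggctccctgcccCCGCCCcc
Tnfrsf13c, chr15:82224381-82224630, minus strand: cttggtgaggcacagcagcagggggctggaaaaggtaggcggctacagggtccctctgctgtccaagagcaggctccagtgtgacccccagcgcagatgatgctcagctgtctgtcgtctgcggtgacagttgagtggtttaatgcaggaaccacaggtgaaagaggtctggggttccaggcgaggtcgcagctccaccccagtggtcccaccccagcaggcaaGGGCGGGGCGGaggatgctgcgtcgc

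The Ngfr window held 4 GC boxes, at 114, 72, 63 and 16 bases before the start, and an ETS core at 102 bases. Its base composition was 70.4% G and C with 16 CpG dinucleotides, against medians of 52.4% and 6 over 32851 RefSeq windows of that length. Ltbr was alike in composition (69.2%, 18 CpG), whereas Tnfrsf21 had 50.4% with 12 CpG and a GC box at 23 bases. In the Tnfrsf1a window the ETS core began 9 bases before the start, and there was no GC box. Tnfrsf13c had 2 GC boxes that overlap, at 26 and 21 bases. Over the 11 windows of the 10 genes (Tnfrsf9 has 2 annotated starts), a GC box was present in 7 and an ETS core in 5, against 32.7% and 12% of all windows. E-boxes (CANNTG) were in 8 of the 11, against 66.2%, and TATAAA in 0, against 12.4%. The NF-κB site consensus, searched on both strands, was found in 1 window, that of the downstream Tnfrsf9 start, where 2 matches overlap, against 7.25% of all windows. These matches describe letters and not binding.

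Ngfr had the largest difference of the 10. Its log2 intensity was 7.37 and 7.30 in WT against 8.35 and 8.36 in Flt3 KO. The Flt3 KO values lay above both WT values and differed from each other by 0.015, less than the 0.072 between the WT values. The means were 7.34 ± 0.051 in WT and 8.35 ± 0.010 in Flt3 KO (SD, n = 2 each), a difference of 1.01 (standard error, SE, 0.067 from limma), or 2.02-fold. In a bulk sample, more cells carrying a transcript and more transcript per cell cannot be told apart. Ngfr encodes p75, which binds all mature neurotrophins with low affinity and their uncleaved precursors together with sortilin.

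Tnfrsf21 encodes death receptor 6, known for restraining lymphocyte responses. It read 6.89 and 6.80 in WT against 7.31 and 7.54 in Flt3 KO, so that the genotypes did not overlap but the Flt3 KO replicates stood 0.24 apart. The difference was 0.58 (SE 0.097), or 1.5-fold.

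Tnfrsf1a, the gene of TNF receptor 1, which most cells carry and which triggers both NF-κB and death signalling, gave 9.49 and 9.50 in WT against 9.68 and 9.93 in Flt3 KO. Here too the genotypes were separate, with the higher value in Flt3 KO replicate 2, and the difference of 0.31 (SE 0.083) became 0.19 without that array. Fas, the death receptor for Fas ligand, had 4.67 and 4.57 in WT against 4.67 and 4.63 in Flt3 KO. Its values overlapped and lay below 5.89 on all 4 arrays, where signal over background is low.

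The receptors that lack a death domain had differences between −0.23 and 0.26. Ltbr, the lymphotoxin β receptor, which activates non-canonical NF-κB, read 6.22 and 6.25 in WT against 6.48 and 6.51 in Flt3 KO, a difference of 0.26 (SE 0.080) with replicates within 0.028 of each other. Tnfrsf1b, the gene of TNF receptor 2, read 9.55 and 9.48 in WT against 9.44 and 9.47 in Flt3 KO. Its difference of −0.064 (SE 0.056) was smaller than the 0.072 between the WT replicates, and was −0.028 without WT replicate 1 and −0.10 without WT replicate 2; Tnfrsf1a, which binds the same ligand, stood at 0.31. Tnfrsf9 (4-1BB), a costimulatory receptor of activated T cells, read 6.34 and 6.01 in WT against 6.20 and 6.39 in Flt3 KO. Tnfrsf18 (GITR), abundant on regulatory T cells, read 7.62 and 7.36 against 7.46 and 7.53. Both overlapped between genotypes, with differences of 0.12 (SE 0.13) and 0.0046 (SE 0.098), and the sign of each turned without WT replicate 2, to −0.050 and −0.12.

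The receptors for the B cell survival factors BAFF and APRIL lay on the lower side in Flt3 KO. Tnfrsf13c, the BAFF receptor gene, read 7.01 and 7.07 in WT against 6.82 and 6.85 in Flt3 KO, a difference of −0.20 (SE 0.076). Tnfrsf13b (TACI), which binds both factors, read 7.57 and 7.32 in WT against 7.16 and 7.26 in Flt3 KO. The genotypes were separate for both genes, but for Tnfrsf13b the gap between the WT replicates (0.25) exceeded the difference of −0.23 (SE 0.10), which was −0.11 without WT replicate 1 and −0.36 without WT replicate 2. The B cell maturation antigen gene Tnfrsf17, which belongs to the same receptor group and is not among the 10, differed by −0.22 (SE 0.11, limma adjusted p = 0.39). Of 9 measured B cell markers, 0 passed in either direction in limma (1 higher and 2 lower at an unadjusted limma p under 0.05, against 6.95% and 10.1% of all genes). The 1 higher was Cr2, at 0.35 (SE 0.086), and the 2 lower were Blk, at −0.34 (SE 0.11), and Cd79b, at −0.25 (SE 0.071). The median difference of the 9 markers, −0.090, was −0.00085 without Flt3 KO replicate 2 and −0.15 when replicate 1 was left out instead. Their summed intensity was 969 to 995 in WT and 869 to 935 in Flt3 KO, and none was at 0; Ms4a1, which defines B cells, had 5.56 and 5.49 against 5.59 and 5.28. The part of B cells in the BAFF receptor values was not tested.

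**Figure D1:**
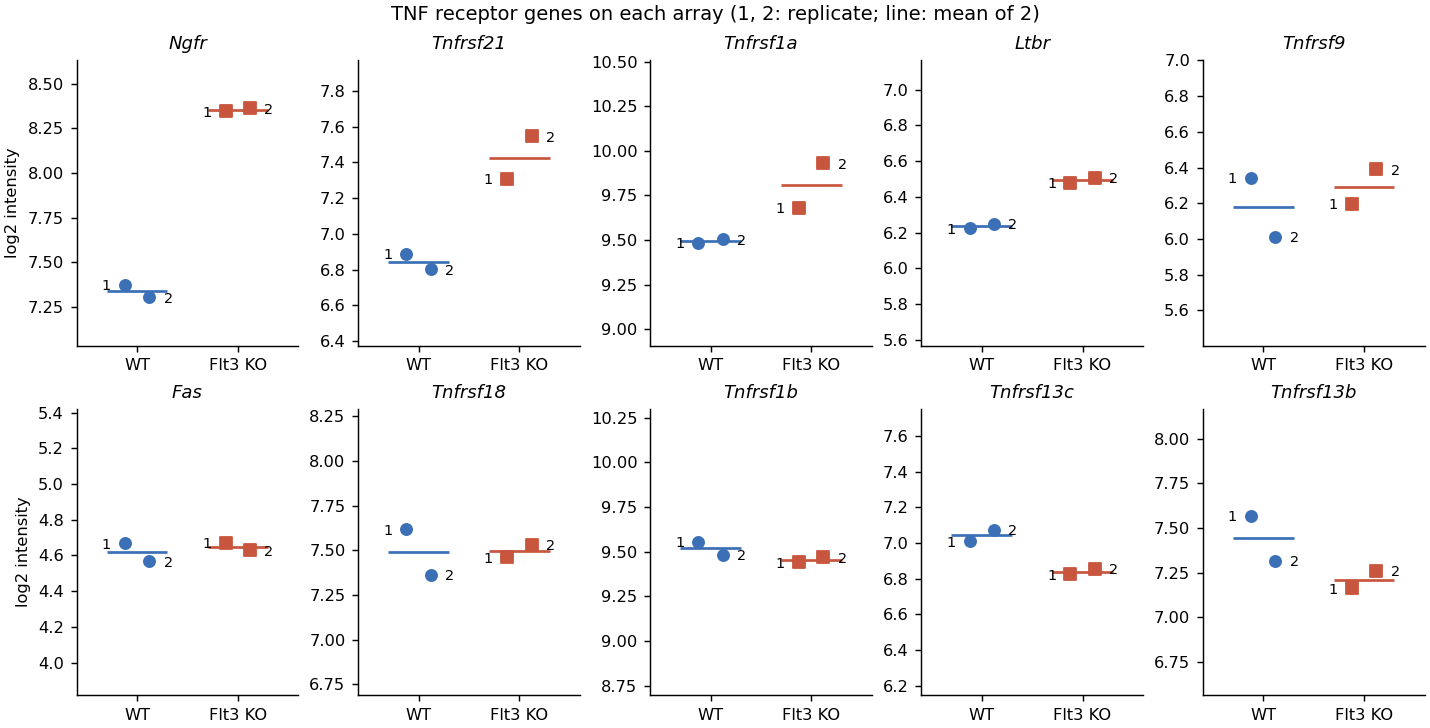
Log2 intensity (vertical axis, each panel spanning 1.6 units) of the 10 receptor genes on the 2 WT arrays (circles) and the 2 Flt3 KO arrays (squares), with replicate numbers and a line at each mean. Ngfr goes from 7.34 to 8.35 with tight replicates, while Tnfrsf9, Fas and Tnfrsf18 overlap between genotypes.

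Across the 10 genes, the genotypes were separate for 7, with Flt3 KO above in 4 and below in 3. Over all genes 47.2% were separate, 21.9% with Flt3 KO above and 25.3% below. In the fit over all genes 2 of the 10, Ngfr and Tnfrsf21, were past the threshold, beside the 2.39% of all genes. As the genes were taken with this contrast in view, nothing is read from either count. The median difference was 0.074, against −0.0010 over all genes, and it rested on single arrays. It was −0.034 without WT replicate 2, 0.19 without WT replicate 1, 0.036 without Flt3 KO replicate 2 and 0.13 when replicate 1 was left out instead. Ordered by difference, Ngfr stood 0.43 above Tnfrsf21 (combined SE 0.12) and Tnfrsf21 0.27 above Tnfrsf1a (combined SE 0.13). From Tnfrsf1a through Ltbr, Tnfrsf9, Fas and Tnfrsf18 down to Tnfrsf1b, the gap between neighbours was below the combined SE each time. Tnfrsf13c lay 0.14 below Tnfrsf1b (combined SE 0.094), and Tnfrsf13b 0.028 below Tnfrsf13c.

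The remaining 18 receptors of the superfamily, listed by name and not by their values, put these differences beside their family. In limma 0 of 18 passed (4 higher and 0 lower at an unadjusted limma p under 0.05), and their median difference was 0.10 (0.065 without WT replicate 1). Cd40, the receptor through which helper T cells license antigen-presenting cells, had 6.85 and 6.92 in WT against 7.23 and 7.37 in Flt3 KO, a difference of 0.41 (SE 0.083, limma adjusted p = 0.057). It was the closest to the threshold, and it passed with quantile normalization (adjusted p = 0.030), with dim genes left out (0.029) and with robust variance (0.044). Cd27, a costimulatory receptor, differed by 0.35 (SE 0.089, limma adjusted p = 0.11) and Relt by 0.45 (SE 0.12, limma adjusted p = 0.11). For Relt, Flt3 KO replicate 2 (7.51) stood well above replicate 1 (7.17), with 6.93 and 6.85 in WT, and the difference was 0.28 without Flt3 KO replicate 2. Of the 28 receptors together, Flt3 KO lay above in 13, below in 8 and overlapped WT in 7, beside 21.9% above and 25.3% below over all genes; 10 of the 28 were chosen with these differences known, and nothing is read from the count.

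**Figure D2:**
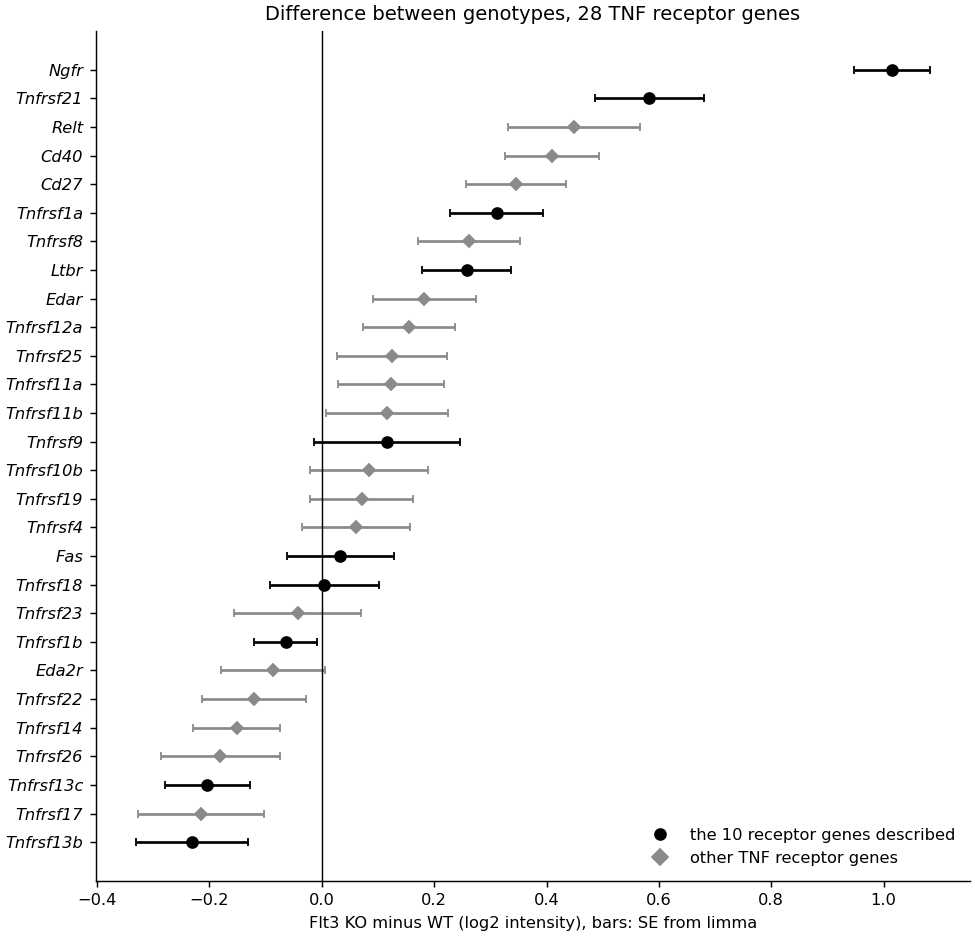
Difference between genotypes (Flt3 KO minus WT, log2 intensity, horizontal axis) for 28 TNF receptor genes, with the SE from limma as bars; the 10 receptor genes described are black circles and the other 18 grey diamonds. Ngfr stands at 1.01, apart from Tnfrsf21 at 0.58, and Tnfrsf13b is lowest at −0.23.

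Among the ligands, the Tnfsf9 transcript rose and the Ltb transcript fell. Of 16 measured TNF family ligands, 1 rose and 1 fell in limma, and the median difference was 0.069. Tnfsf9 (4-1BB ligand) read 7.48 and 7.58 in WT against 8.53 and 8.90 in Flt3 KO, a rise of 1.18 (SE 0.12, limma adjusted p = 0.0071); its receptor gene Tnfrsf9 overlapped between genotypes. Ltb, a chain of the membrane lymphotoxin heterotrimer, read 8.99 and 8.78 in WT against 8.14 and 8.08 in Flt3 KO and fell by 0.77 (SE 0.083, limma adjusted p = 0.0085), whereas its receptor gene Ltbr was on the higher side. Both ligand calls were already known when the lists were made. Tnf, named here after its value was seen, read 7.67 and 7.38 in WT against 7.00 and 7.07 in Flt3 KO. This difference of −0.49 (SE 0.11) missed the threshold in limma (adjusted p = 0.070), beside Tnfrsf1a on the higher side and Tnfrsf1b near 0. The ligand genes of Fas, GITR and the BAFF receptor, Fasl, Tnfsf18 and Tnfsf13b, were below 5.89 on every array, and their differences were 0.15 (SE 0.098), 0.044 (SE 0.16) and −0.013 (SE 0.098). Tnfsf12 and Tnfsf13 share a probe set and were not analysed here.

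Of 10 measured neurotrophins and partners of Ngfr, 0 passed in limma (0 higher and 2 lower at an unadjusted limma p under 0.05), and the median difference of −0.018 ran from −0.084 without Flt3 KO replicate 1 to −0.0044 without WT replicate 2. The lowest p-values were those of Bex3, whose product binds the intracellular part of p75 (−0.23, SE 0.054, limma adjusted p = 0.087), Maged1, another p75-binding protein (−0.16, SE 0.062, limma adjusted p = 0.26) and Sorcs2, a sortilin-like co-receptor (0.14, SE 0.089, limma adjusted p = 0.47; 0.073 without WT replicate 1). Bex3 was bright, with 10.04 and 10.01 in WT against 9.83 and 9.75 in Flt3 KO, and it passed after centring of each array (adjusted p = 0.041) and with dim genes left out (0.045). The co-receptor gene Sort1 was at 8.93 and 8.89 in WT against 8.90 and 8.80 in Flt3 KO. The ligand genes Bdnf and Ntf5 and the neurotrophin kinases Ntrk2 and Ntrk3 stayed below 5.89 on every array.

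Proteases that shed TNF receptors or cut p75 within the membrane, and their regulators, gave no call. Of 9 measured, 0 passed in limma (0 higher and 2 lower at an unadjusted limma p under 0.05), and the median of −0.048 was −0.087 without Flt3 KO replicate 2, −0.084 without WT replicate 1 and −0.012 without WT replicate 2. Rhbdf2, the gene of iRhom2, which matures the sheddase ADAM17, differed by −0.16 (SE 0.061, limma adjusted p = 0.24), the sheddase gene Adam10 by −0.17 (SE 0.066, limma adjusted p = 0.27) and the γ-secretase subunit gene Aph1a by −0.12 (SE 0.066, limma adjusted p = 0.41), or −0.045 without Flt3 KO replicate 1 and −0.19 when replicate 2 was left out instead. Among 21 adaptors and regulators of death signalling, 0 passed in limma (0 higher and 6 lower at an unadjusted limma p under 0.05, against 6.95% and 10.1% of all genes). The median of −0.078 was −0.045 without Flt3 KO replicate 1, −0.045 without WT replicate 2 and −0.12 without Flt3 KO replicate 2. Traf4 differed by −0.23 (SE 0.052, limma adjusted p = 0.083), Traf2, the adaptor that links TNF receptors to NF-κB, by −0.30 (SE 0.069, limma adjusted p = 0.089) and Tradd, which docks on the death domain of TNF receptor 1, by −0.23 (SE 0.078, limma adjusted p = 0.20). Traf2 read 9.05 and 9.06 in WT against 8.68 and 8.83 in Flt3 KO, with both Flt3 KO values below both WT values. With dim genes left out, Traf2 (adjusted p = 0.046) and Traf4 (0.043) passed, and Traf4 also passed after centring of each array (0.047).

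Within the NF-κB core, Map3k14 was called. This gene encodes NIK, the kinase that starts the non-canonical pathway downstream of the lymphotoxin β receptor, CD40 and the BAFF receptor. It read 7.62 and 7.60 in WT against 8.30 and 8.51 in Flt3 KO and rose by 0.80 (SE 0.083, limma adjusted p = 0.0076), while 18 of 19 core genes did not pass and the median was −0.021 (0.027 after quantile normalization, −0.080 without Flt3 KO replicate 2, −0.0058 when replicate 1 was left out instead). The non-canonical subunit genes Nfkb2 and Relb, named after their values were seen, differed by −0.096 (SE 0.054) and −0.090 (SE 0.069). Of 20 genes known as NF-κB targets 3 rose and 0 fell in limma, and the median was 0.16. At an unadjusted limma p under 0.05, 8 were higher and 1 lower, against 6.95% and 10.1% of all genes. These counts depend on which targets the list holds, and nothing is read from them. Further known targets stood in other lists. Among them Ltb (−0.77, SE 0.083), Tnf (−0.49, SE 0.11) and Traf1 (−0.23, SE 0.084) were lower in Flt3 KO. Birc3 was higher (0.12, SE 0.055). This choice of further targets was made with the differences in view. The 15 monocyte and macrophage markers described below had a median difference of 0.50 on the same arrays (0.19 without Flt3 KO replicate 2), and their part in the target gene values was not tested. Il1b, the gene of the inflammatory cytokine IL-1β, read 8.54 and 8.30 in WT against 9.24 and 9.54 in Flt3 KO and rose by 0.97 (SE 0.12, limma adjusted p = 0.011), a call known when the list was made. Ier3, an early response gene, rose by 0.69 (SE 0.11, limma adjusted p = 0.030), and Tnip3, which encodes an A20-binding inhibitor of NF-κB, by 0.80 (SE 0.15, limma adjusted p = 0.049). Ier3 and Tnip3 were below 5.89 on every array. The inhibitor gene Nfkbia and Tnfaip3, which encodes A20, both direct NF-κB targets, differed by 0.080 (SE 0.051) and 0.046 (SE 0.060); they too are named after their values were seen.

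In all, 6 of 113 measured genes of these 7 lists passed (5.31%, against 2.39% of all genes), 5 higher and 1 lower. As the calls of Tnfsf9, Ltb and Il1b were known when the lists were made, nothing is read from this share. Without WT replicate 1, WT replicate 2 or Flt3 KO replicate 2, each of the 6 calls was lost, and without Flt3 KO replicate 1 those of Tnfsf9 and Map3k14 were kept. The differences of the 6 genes kept their sign in these fits, which was fixed in advance because their replicates do not overlap between genotypes. Without the intensity trend the calls of Il1b, Ier3 and Tnip3 were also lost (adjusted p = 0.052, 0.062 and 0.10), and with 16 added to each intensity the Tnip3 difference was 0.46.

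**Figure D3:**
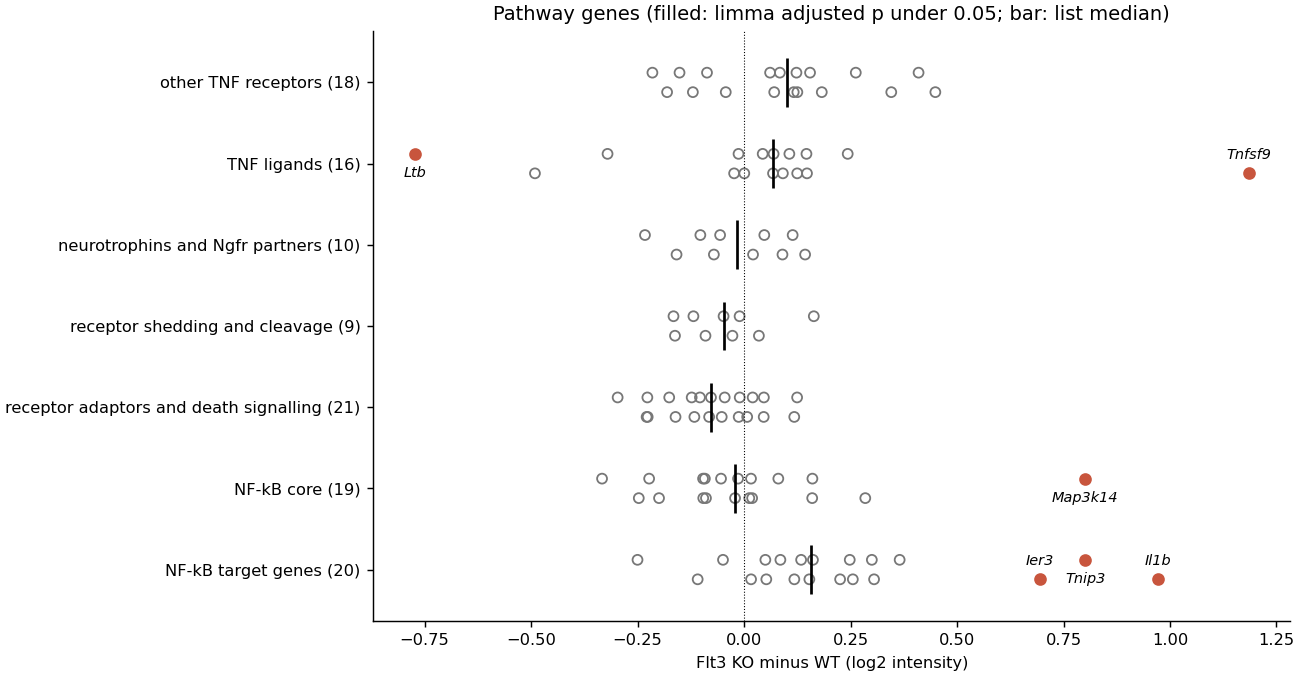
Difference between genotypes (Flt3 KO minus WT, log2 intensity, horizontal axis) for each measured gene of 7 pathway lists, with the number of genes in brackets, filled circles for an adjusted p under 0.05 in limma and a bar at each list's median. Tnfsf9 rose by 1.18 and Ltb fell by 0.77, and most other genes lie near 0.

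Markers of other cell types that can carry these receptors moved with the genotype in part. Of 15 measured monocyte and macrophage markers, 5 rose and 0 fell in limma. Their summed intensity was 4175 to 4453 in WT, 5186 in Flt3 KO replicate 1 and 6587 in Flt3 KO replicate 2; none was at 0, and the dimmest was Vsig4, with a mean of 3.59. The list's median deviation from the WT mean came to 0.19 for Flt3 KO replicate 1 and 0.56 for replicate 2. Its genes were not alike in this. Of the 5 that rose, Ccr2 (9.16 and 9.19), Lyz2 (8.06 and 8.04) and Fn1 (6.56 and 6.44) were close in the Flt3 KO replicates or lower in replicate 2. Cd14 (9.11 and 9.65) and Cx3cr1 (8.63 and 9.06) were higher in replicate 2. Tnfrsf21 and Tnfrsf1a also had their higher value in Flt3 KO replicate 2, as did Relt, Cd40, Cd27, Map3k14, Tnfsf9, Il1b and Tnip3 (4.70 and 5.04). Ier3 had its lower value there (5.61 and 5.40). This order of the replicates was not particular to the genes that were higher in Flt3 KO. Of the receptor genes described, all but Fas had it, also Tnfrsf13b, Tnfrsf13c and Tnfrsf1b, which were lower in Flt3 KO. The share of all genes with this order is not given here. The part of monocytes and macrophages in those differences was not tested. The Ngfr difference was 1.01 without Flt3 KO replicate 2 and 1.02 without replicate 1, and that of Ltbr 0.24 and 0.27.

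Ngfr is also a gene of follicular dendritic, stromal and glial cells. Of 13 stromal and follicular dendritic cell markers 0 passed in limma (2 higher and 0 lower at an unadjusted limma p under 0.05), and 12 of the 13 differences were above 0. The median difference of 0.15 was 0.029 with the first Flt3 KO array left out, 0.28 with the second left out, 0.25 without WT replicate 1 and 0.065 without WT replicate 2. Summed intensities were 899 to 1149 in WT and 1091 to 1965 in Flt3 KO. Flt3 KO lay above WT in both replicates for 3 of the 13 markers, beside 21.9% of all genes. Among the 3 were Bst1 (0.44, SE 0.11, limma adjusted p = 0.11) and Col1a1 (0.24, SE 0.083, limma adjusted p = 0.21). Decorin (Dcn) set the range, with 8.03 and 6.78 in WT against 9.78 and 7.85 in Flt3 KO. Lum was the dimmest, with a mean of 2.98. Of 6 Schwann and neural cell markers 0 passed (1 higher and 0 lower at an unadjusted limma p under 0.05), the median was 0.15, and the sums were 306 to 315 in WT and 328 to 345 in Flt3 KO. Flt3 KO lay above WT in both replicates for 3 of the 6, beside 21.9% of all genes. These were Tubb3 (0.39, SE 0.12, limma adjusted p = 0.15), S100b (0.17, SE 0.089, limma adjusted p = 0.39) and Nes (0.16, SE 0.10, limma adjusted p = 0.48). Of the 6 differences 5 were above 0. Sox10, which defines glia, overlapped, with 5.98 and 5.85 against 5.89 and 6.21. For the T cell receptors Tnfrsf9 and Tnfrsf18, 0 of 10 T cell markers passed in limma (3 higher and 2 lower at an unadjusted limma p under 0.05). The 3 higher were Cd3d (0.35, SE 0.13), Cd3e (0.29, SE 0.10) and Icos (0.28, SE 0.10), and the 2 lower Cd5 (−0.36, SE 0.083) and Cd8a (−0.13, SE 0.057). Sums were 1278 to 1300 in WT and 1247 to 1271 in Flt3 KO. They weigh most the brightest markers, Cd8a and Cd5, which were the 2 lower. For Tnfrsf13b and Tnfrsf17, which plasma cells also carry, 2 of 9 plasma cell markers rose, Slamf7 and Jchain, and 3 fell, Txndc5, Mzb1 and Xbp1, with sums of 5573 to 5648 in WT and 5768 to 6043 in Flt3 KO. The part of these cells was not tested. Of the other lists, 6 of 12 pDC identity genes fell, Irf8 among them, and 0 rose. At an unadjusted limma p under 0.05, 9 of the 12 were lower and 0 higher, against 10.1% and 6.95% of all genes. The median difference of the pDC list was −0.24. Flt3, the targeted gene, was the only call among 10 conventional dendritic cell genes. At an unadjusted limma p under 0.05, 4 of these were higher and 1, Flt3 itself, was lower. The 4 higher were Zbtb46 (0.48, SE 0.12), Cd24a (0.48, SE 0.096), Itgam (0.41, SE 0.11) and Itgax (0.22, SE 0.053). The part of conventional dendritic cells in the receptor values was not tested. In limma 0 genes passed among 9 NK cell, 9 neutrophil, 7 endothelial and 4 erythroid markers (1, 3, 3 and 1 at p under 0.05 before adjustment).

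**Figure D4:**
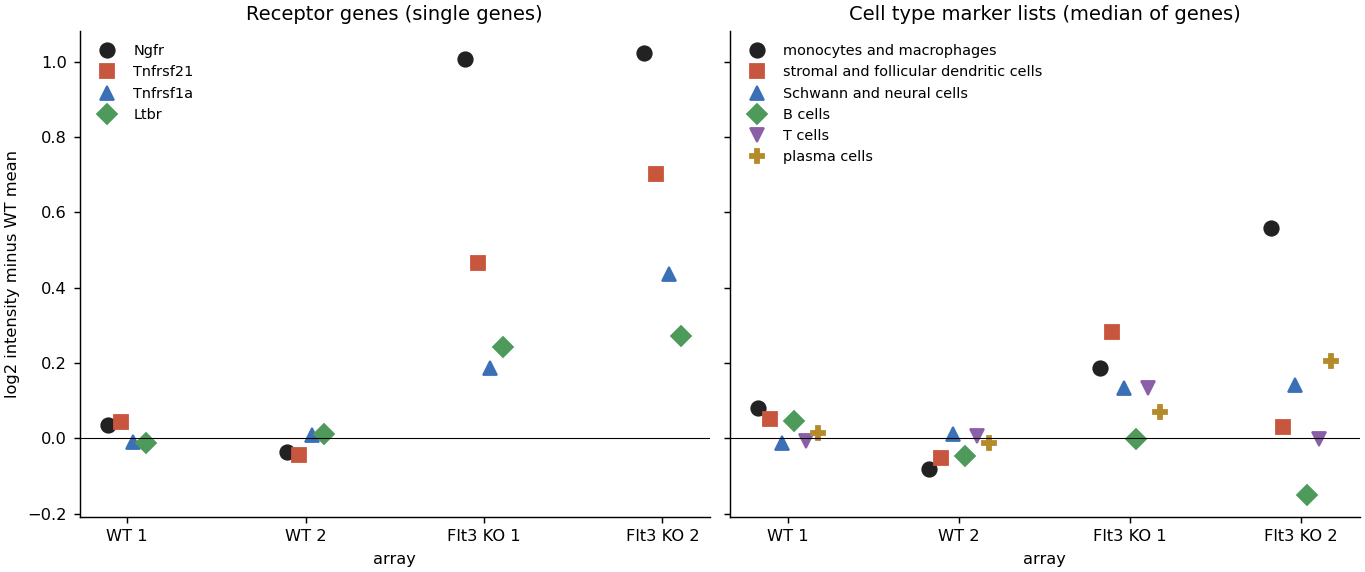
Deviation from the WT mean (log2 intensity, vertical axis) on each of the 4 arrays, for 4 receptor genes at left and for the median gene of 6 marker lists at right. Ngfr is alike in both Flt3 KO replicates. The monocyte and macrophage list is at 0.19 in replicate 1 and 0.56 in replicate 2, as a median over genes that are not alike in this.

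The genes with a profile nearest to that of Ngfr were found by the Euclidean distance between deviations from the WT mean over the 4 arrays. Some genes were left out of this search by their symbol. These were predicted and provisionally named genes, microRNA and olfactory receptor genes, and all symbols beginning with Igh, Igk, Igl, Tra or Trb, the Traf genes among them. They were Nnt, the mitochondrial transhydrogenase gene (distance 0.083), Rin3, a regulator of Rab5 (0.11), Pfkfb3, a regulator of glycolysis (0.11), Rasgrp4, a Ras exchange factor of myeloid cells (0.17), and the membrane protein gene Tmem176b (0.18). Nnt read 8.06 and 8.01 in WT against 8.99 and 8.99 in Flt3 KO, a difference of 0.96 (SE 0.061). With 4 arrays in 2 groups such a likeness reflects little more than the size of the genotype difference and the closeness of replicates.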

How the data were processed

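The deposited table held linear intensity values, processed by the authors, for 30177 probe sets on 4 arrays. How background, summarisation and normalization were handled is not given in the sources used here. RNA was amplified and biotin-labelled with whole-transcript kits, per the labels. Of the probe sets 21789 had 1 gene symbol in the platform annotation, 1621 several and 6767 none; only the first kind was used, keeping for each of 19938 genes the probe set with the highest mean, with no filter on dim genes. Log2 intensities were fitted with limma 3.58.1 in R 4.3.3 (lmFit, eBayes with an intensity trend, no covariate), which gave moderated SEs, and Benjamini-Hochberg adjustment ran over all 19938 genes. The fit was run on simulated data with independent normal errors whose SD was taken from the fit itself. Such a run checks the code and cannot show how reliable calls from these arrays are. Depth has no meaning for arrays: their number limits the precision.

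Members and gene lists (7 pathway, 12 marker) were chosen with earlier results of these data known. Named pathway genes are up to 6 past the threshold per list, otherwise the 3 with the lowest p; exceptions are marked. Alternatives were median centring, quantile normalization, 16 added before log2, dim genes left out, probe sets averaged, no trend, robust variance, a replicate block, and each array left out. Listed genes not matched to such a probe set were not analysed here. Promoter windows were matched by symbol for all 10 genes; those of Fas and Tnfrsf13b do not begin at the outermost annotated start.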

Additional observations from a re-analysis of the deposited data

How the results depend on the processing

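Across all genes the count past the threshold was 476 (215 higher, 261 lower); centring of each array on its median gave 217 higher and 452 lower, and quantile normalization 293 and 259. It was 724 with dim genes left out and 108 without the intensity trend. Of the 10 receptor genes 2 passed, and 1 without the trend; of the pathway genes 6, with 11 when dim genes were left out and 3 without the trend; of the marker genes 17, with 6 without the trend. Leaving out 1 array, which leaves an arm with a lone sample assumed to vary like the other group, gave 0 to 54 calls over all genes, 0 to 1 over the receptor genes, 0 to 2 over the pathway genes and 0 to 4 over the marker genes. In limma without WT replicate 1, WT replicate 2 or Flt3 KO replicate 2, the counts at an unadjusted limma p under 0.05 were 2068, 2650 and 2689 over all genes, 2, 5 and 3 over the receptor genes and 22, 27 and 26 over the pathway genes.

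With the replicate number as a block 375 genes passed, with 2 receptor, 6 pathway and 17 marker genes. Same-numbered arrays did not deviate together (correlation of deviations −0.017 across genes). With 2 arrays per genotype this cannot tell whether the samples were paired, and the labels state no pairing. The differences of Ngfr, Tnfrsf21, Tnfrsf1a, Ltbr, Tnfrsf1b, Tnfrsf13b and Tnfrsf13c kept their sign under every alternative run. For most alternatives this was fixed in advance. The replicates of these genes do not overlap, so leaving out an array could not turn a sign. The block, the averaging of probe sets and the variance settings leave each difference as it is. The sign turned for Fas (0.033) after centring (−0.0052) and without WT replicate 2 (−0.018; highest 0.084 without WT replicate 1), for Tnfrsf9 (0.12) without WT replicate 2 (−0.050; highest 0.28 without WT replicate 1), and for Tnfrsf18 (0.0046) after centring (−0.034), without WT replicate 2 (−0.12; highest 0.13 without WT replicate 1) and without Flt3 KO replicate 2 (−0.030). These are differences near 0. Signal near background limits Fas and the dim ligands.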
